A study of Arabidopsis thaliana with 6 samples.

Results

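Seedlings of Arabidopsis thaliana kept at 40 °C were compared with seedlings kept at 20 °C, across all genes on the Affymetrix ATH1 array. The comparison used 4 of the 6 arrays of the series: wild type at 20 °C, the AtrbohB mutant at 20 °C, wild type at 40 °C and the AtrbohB mutant at 40 °C, with 1 array for each. Wild type was accession Col-0. The mutant, also Col-0, carries a dSpm transposon in At1g09090, the gene AtrbohB, which encodes a respiratory burst NADPH oxidase; no probe set is named for that gene here, so its level was not analysed. Each sample pooled 90 plants. The plants had been grown on MS medium under long days, and were then floated on water at their temperature for a time that the labels do not give. The arrays at 30 °C, 1 per genotype, entered the fit to share its estimate of the spread, and they served as the test of what differed between 40 and 30 °C. The mutant array at 40 °C has the word repeat in its title, and what was repeated is not given. In pairs of signals below, wild type comes first and the mutant second.

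At high temperature proteins unfold, and plant cells respond by transcribing genes for chaperones. The small heat shock proteins hold unfolding proteins until HSP70 and HSP100 chaperones refold them, and plants keep separate small heat shock proteins for the cytosol, the endoplasmic reticulum, the mitochondria, the plastids and the peroxisomes. Mitochondria and plastids have genomes of their own, which encode parts of the respiratory and photosynthetic complexes, and the nucleus encodes the rest. Organelle transcripts mostly lack the long poly(A) tails of nuclear messengers, and a poly(A) tail on them is known as a mark for decay. The labels' protocols state that cDNA was primed with an oligo(dT) primer, so signals of organelle genes rest on those molecules that such a primer reached; the length of their tails was not measured.

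Values are the deposited intensity of a probe set, on a linear scale. Values under 13.7, the 25th percentile over the arrays, were set to 13.7 as a floor before log2 was taken; this value marks no limit of detection, and where a gene lay at it on both arrays of a temperature, the change is given as at least a fold. Between 22.9% and 27.6% of probe sets lay at the floor of an array, and array medians were between 38.5 and 44.0, with 40.8 and 42.5 at 20 °C and 44.0 and 43.5 at 40 °C. Limma tested 18227 probe sets, of which 2456 were higher at 40 °C (13.5%) and 2674 lower (14.7%), at an adjusted p under 0.05. With each array centred on its median, 1703 were higher and 2866 lower. Changes are written as 40 minus 20 °C on the log2 scale, with the standard error (SE) of the fit over 2 arrays against 2. The p-values measure the spread between these arrays, since no label gives separate cultures, and whether the genotypes responded differently has no test with 1 array per group. In whole seedlings, fewer cells of a type and less RNA per cell cannot be told apart.

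The 3 genomes moved differently. Of 10048 nuclear genes tested, 1204 were called higher (12%) and 1357 lower (13.5%), and their median change was 0.08; with centred arrays 841 were higher and 1457 lower. At least a 2-fold change was seen for 307 of the higher and 565 of the lower genes, and at least 8-fold for 23 and 6. For 131 nuclear genes the 40 °C arrays alone passed the filter, and 24 of these are among the 1204 called higher. Genes of the mitochondrial genome were all called higher, 15 of 15, with a median of 4.22. Of these, 3 lay below the floor on every array at 20 and 30 °C and passed the filter only through their 40 °C arrays, so their direction was fixed; of the 12 with all 6 arrays above the floor, 12 were called higher. Genes of the plastid genome shifted little, with 26 of 69 called higher (37.7%), 8 called lower (11.6%) and a median of 0.31. Nuclear loci of a copy of mitochondrial DNA on chromosome 2 were set apart, and 23 of 30 were called higher with none lower. For 8 of the 30 the 40 °C arrays alone passed the filter, and 6 of these 8 are among the 23. A separate fit, limited to probe sets with all 6 arrays above the floor, called 13 of 14 block loci higher. Of those 14, AT2G07691 (limma adjusted p = 0.0574) and AT2G07724 (limma adjusted p = 0.0812) were not called in the fit of 18227 probe sets.

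**Figure D1:**
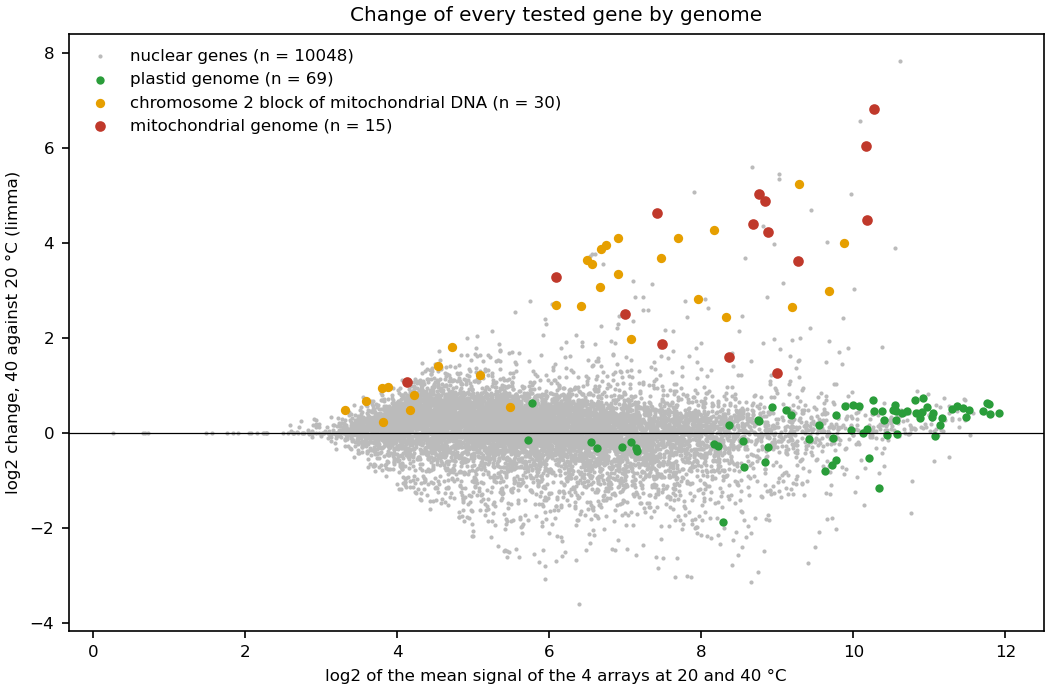
Change at 40 against 20 °C (y axis, log2, limma) of every tested gene against the log2 of its mean signal on the 4 arrays (x axis), coloured by genome. The 15 mitochondrial genes lie between 1.06 and 6.81, the 69 plastid genes between -1.87 and 0.72, and most nuclear genes near 0.

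Among mitochondrial genes, subunits of respiratory complex I, the NADH dehydrogenase, held both the largest and the smallest rises. Signals of nad6 were 23.6 and 20.1 at 20 °C, 43.1 and 42.9 at 30 °C, and 2359 and 2530 at 40 °C. The rise of nad6 at 40 against 20 °C was 6.81 ± 0.13 (limma adjusted p = 3.38e-08). For nad7 the signals were 8.3 and 4.5 at 20 °C and 26.6 and 30.7 at 40 °C, which is at least 2.09-fold (limma adjusted p = 0.00407), since both 20 °C arrays were at the floor. The probe set of nad4 had signals of 258.5 and 342.1 at 20 °C, and it reached 820.6 and 616.5 at 40 °C, a rise of 1.26 ± 0.17 (limma adjusted p = 0.0013). Values of nad1, nad4L, nad5 and nad9 rose by 4.38, 5.03, 6.02 and 4.22. No signal of nad2 passed the filter: its values were 0.8 and 0.8 at 20 °C and 0.6 and 4.2 at 40 °C.

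The terminal oxidase of the chain rose alongside. Signals of cox1, its catalytic subunit, were 89.6 and 109.3 at 20 °C, 76.5 and 80.9 at 30 °C, and 2217.0 and 2217.1 at 40 °C. Those of cox2 went from 30.5 and 29.5 to 903.2 and 867.1. In both genes the arrays of the 2 temperatures lay far apart, and the genotypes lay close to each other. The genes for the assembly of c-type cytochromes rose by less evenly spread amounts. Here ccb203 rose at least 24.5-fold, from signals of 4.9 and 3.3 to 315.5 and 357.3, while ccb452 rose by 3.61 ± 0.11, ccb206 by 2.50 ± 0.28 and ccb382 by 1.60 ± 0.11. The maturase gene matR, which lies within an intron of nad1, rose at least 9.74-fold, from 2.3 and 2.4 to 129.4 and 137.5. The last gene, orfX, which encodes a membrane transporter subunit of the TatC type, rose by 1.87 ± 0.15.

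Probe sets of 1 mitochondrial gene did not all give the same change. The 7 probe sets of nad1, a gene whose exons are joined by trans-splicing, rose by 1.31 to 4.74. Both probe sets of nad5 rose, by 6.02 and 7.28. The lowest nad1 probe set had signals of 2.5 and 2.7 at 20 °C and 31.3 and 36.7 at 40 °C. In that probe set both 20 °C arrays lay at the floor, so its 1.31 is a lower limit.

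All 15 mitochondrial genes were also higher at 40 than at 30 °C, where 22.9% of nuclear genes were called higher and 16.6% lower. For 3 of the 15, nad7, matR and ccb203, only the 40 °C arrays passed the filter, so this direction was fixed as well. The median of the 15 for that difference was 3.65. At 30 against 20 °C, 6 of them were called higher, beside 13.9% of nuclear genes. The median of the 15 changes at 40 against 20 °C was 4.37 for wild type and 4.06 for the mutant, a difference between single arrays that was not tested. Without wild type at 40 °C, 12 of the 15 were still called, the exceptions being nad4 (adjusted p = 0.0646), orfX (adjusted p = 0.0525) and ccb206 (adjusted p = 0.105), and without the mutant at 40 °C 13 were, with ccb206 (adjusted p = 0.0719) and nad7 (adjusted p = 0.055) lost in limma. Without the mutant at 20 °C nad7 was lost (limma adjusted p = 0.0607). Probe sets whose name ends in _s_at, which the maker marks as matching more than 1 transcript, stood for 5 of the 15.

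Chromosome 2 of Arabidopsis carries a long insertion of mitochondrial DNA near its centromere, and the loci numbered AT2G07600 to AT2G07850 cover it. Of 37 such loci with a probe set, 30 were tested, and their median change was 2.68. The largest fitted rise was that of AT2G07777, with signals of 36.3 and 28.6 at 20 °C and 1149 and 1275 at 40 °C; AT2G07722 had signals of 21.9 and 36.4 at 20 °C and 535.3 and 551.0 at 40 °C. For 11 of the 30 loci both 20 °C arrays lay at the floor, so their rises are lower limits and have no order against these. AT2G07728 went from 3.8 and 3.4, below the floor, to 231.3 and 240.9. AT2G07707 went from 114.1 and 106.2 to 1652 and 1883. AT2G07728 passed the filter only through its 40 °C arrays, so its direction was fixed. In AT2G07777, AT2G07722 and AT2G07707, picked after their values were seen, both 40 °C arrays lay above both 20 °C arrays. The 7 of the 30 loci that were not called had changes of 0.22 to 1.22, among them AT2G07760 with 12.8 and 11.7 against 18.5 and 13.0.

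In the order of the RefSeq gene table, assembly TAIR10.1, the risen loci lie together. From the first to the last risen locus, AT2G07773 to AT2G07741, 22 of 27 tested loci were called higher and none lower, with a median of 2.81. These ends were chosen by the values, so the count is a description. Of the 27, 8 passed the filter only through their 40 °C arrays, so their direction was fixed, and 6 of these 8 are among the 22. Of the 40 tested loci just before the block, 6 were higher and 3 lower, with a median of 0.06, and of the 40 just after it 6 were higher and 2 lower, with a median of 0.27. One risen locus, AT2G07718, has no place in that table and is missing from the 27. A match to more than 1 transcript is marked for 19 of the 30 loci, and 16 of those were called higher, as were 7 of the other 11. Whether this signal comes from the nuclear copy or from the mitochondrial genome cannot be told apart with these probe sets.

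**Figure D2:**
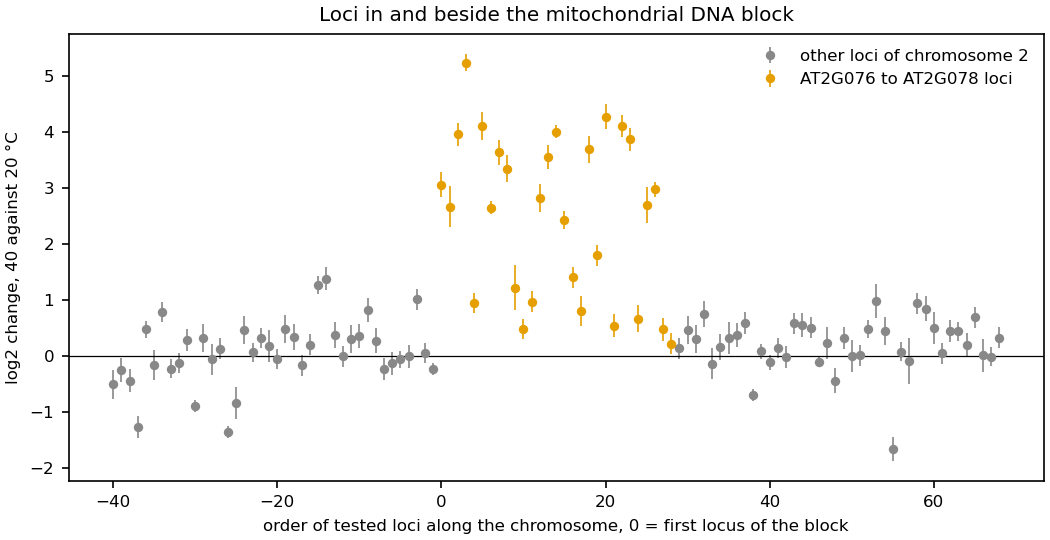
Change at 40 against 20 °C (y axis, log2; bars are the SE) of tested loci on chromosome 2 in their order along the chromosome (x axis, counted from the first locus of the block of mitochondrial DNA). Loci of the block reach 5.23, and those on either side stay between -1.66 and 1.38.

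In the plastid genome the largest falls were those of genes for ribosomal proteins. Signals of rps18, a protein of the small subunit, were 463.8 and 509.1 at 20 °C, 488.4 and 662.1 at 30 °C, and 107.9 and 163.1 at 40 °C. Those of rpl33, a large subunit protein, were 1564 and 1991 at 20 °C, 2132 and 2458 at 30 °C, and 626.3 and 985.0 at 40 °C. In both genes the 40 °C arrays lay below all the others. The change of rps18 was -1.87 ± 0.13 (limma adjusted p = 2.97e-05), and that of rpl33 -1.17 ± 0.13 (limma adjusted p = 0.000364).

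Of 7 genes of the large subunit 5 were called lower, with rpl14 at -0.68, rpl22 at -0.57, rpl16 at -0.54 and rpl36 at -0.73; the call of rpl36 was lost on centring (adjusted p = 0.0537) and on quantile normalization (adjusted p = 0.0792) in limma. Their neighbour in function rpl32 was called higher, at 0.45. Of 8 genes of the small subunit rps18 alone was called. The gene rbcL, for the large subunit of Rubisco, the enzyme that fixes carbon dioxide, had signals of 1069 and 943.5 at 20 °C and 661.1 and 497.2 at 40 °C, a change of -0.81 ± 0.11 (limma adjusted p = 0.00133). Of 4 genes of the plastid RNA polymerase, rpoC2 was called lower at -0.61. Between 40 and 30 °C, 12 plastid genes were lower and 2 higher, and 5 of the 12 belong to the large ribosomal subunit. Set against the 16.6% of nuclear genes called lower in that comparison, 12 of 69 is a like share. At 40 against 20 °C, 11.6% of plastid genes were called lower, beside 13.5% of nuclear genes. Against 8 plastid genes called lower, limma called 7 on centring, 8 on quantile normalization, 1 with the wild-type array at 40 °C left out and 2 with the mutant array at 40 °C left out.

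Genes of the photosystems had small positive changes. All 5 of photosystem I and 11 of 15 of photosystem II were called higher, 3 of 6 of the cytochrome b6f complex, 3 of 10 of the NDH complex and 1 of 6 of the ATP synthase. The largest was psbH, of photosystem II, with signals of 1361 and 1554 at 20 °C and 2579 and 2233 at 40 °C, a change of 0.72 ± 0.15 (limma adjusted p = 0.00793). No plastid gene rose 2-fold. Against 26 plastid genes called higher, limma called 3 on centring, 6 on quantile normalization and 0 when either 40 °C array or the wild-type array at 20 °C was left out. For photosystem I, 0 of 5 stayed called on either scaling. The psaA signals, 1025 and 1780 at 20 °C, then 2402 and 1988 at 40 °C, show how much the genotypes' arrays differed at 20 °C. Over all plastid genes the median was 0.43 for wild type and 0.04 for the mutant.

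**Figure D3:**
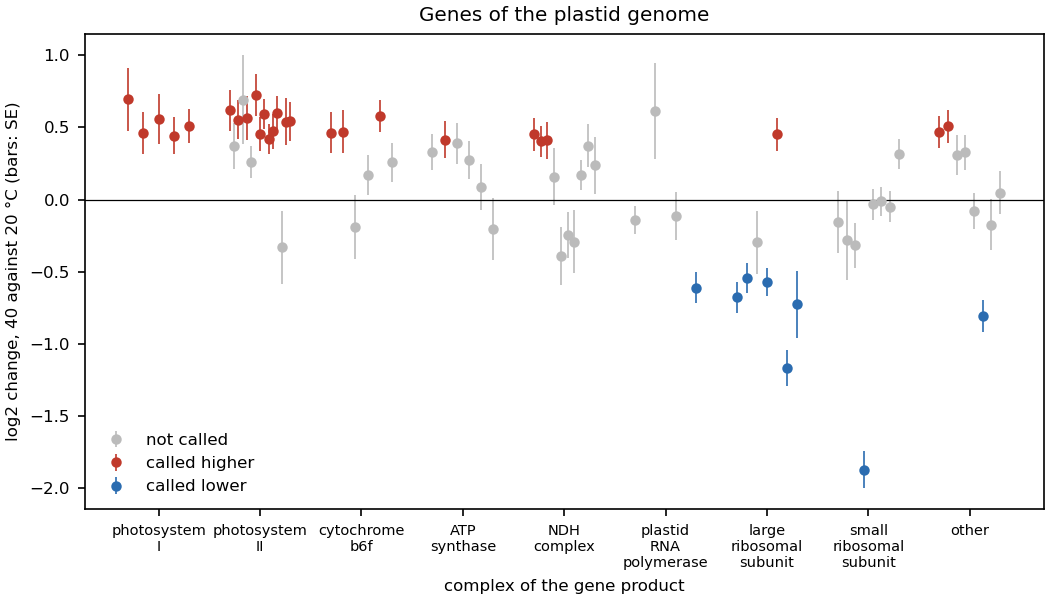
Change at 40 against 20 °C (y axis, log2; bars are the SE) of the 69 plastid genes, 1 point each, by the complex of their product (x axis), with genes called higher in red and lower in blue. Photosystem genes lie mostly between 0.26 and 0.72, and the lowest points are rps18 at -1.87 and rpl33 at -1.17.

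Among the nuclear genes, the 30 that rose most had fitted changes of 2.71 to 7.82, and the 30 that fell most had fitted changes of -2.47 to -3.60. Both sets were taken by fitted size from the called genes, so their values are a description; 8 rises and 7 falls, both extremes among them, are lower limits set by the floor. Of the 30 rises, 18 were called higher still at 40 than at 30 °C and 4 lower, and 21 were also called higher at 30 against 20 °C; of all nuclear genes 22.9% and 13.9% were called higher in these comparisons. Of the 30 falls, 25 were called lower at 40 than at 30 °C and 2 higher, and 17 were also called lower at 30 against 20 °C, beside 19.1% of nuclear genes. Lower at 40 than at 30 °C were 16.6% of nuclear genes. The genes were picked by the 40 and 20 °C arrays, which these comparisons share, so nothing is read from the counts.

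Small heat shock proteins for several compartments stood among the rises. The cytosolic AT1G53540 had signals of 13.0 and 7.3 at 20 °C, 2380 and 2631 at 30 °C, and 3252 and 2965 at 40 °C, and was called higher at 40 than at 30 °C by 0.31 ± 0.11 (limma adjusted p = 0.044). The cytosolic AT2G29500 had signals of 23.6 and 21.8 at 20 °C, 2092 and 2276 at 30 °C, and 2255 and 2033 at 40 °C. The endoplasmic reticulum protein ATHSP22.0 had signals of 25.3 and 24.7 at 20 °C, then 219.6 and 133.5, then 1074 and 946.1. The signals of the peroxisomal protein AT5G37670 were also highest at 40 °C, with 19.1 and 14.1, then 154.5 and 138.4, then 853.2 and 734.8. The 40 against 30 °C difference was -0.03 ± 0.11 for AT2G29500 (limma adjusted p = 0.856), 2.56 ± 0.17 for ATHSP22.0 (limma adjusted p = 1.61e-05) and 2.44 ± 0.13 for AT5G37670 (limma adjusted p = 5.82e-06). The mitochondrial AT5G51440 was highest at 30 °C, at 757.6 and 769.3; the 40 °C signals were 332.6 and 255.9, and those at 20 °C were 37.6 and 29.9. It fell between 30 and 40 °C by 1.39 on the log2 scale.

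The list of small heat shock proteins held 17 genes, of which 9 had a tested probe set of their own, and 8 of these were called higher, with a median of 3.72. Among them AT2G19310 reached 1797 and 1879 from 239.4 and 213.2, and AT5G47600 37.4 and 25.7 from 15.5 and 17.1. The ninth, AT4G21870, was not called, at -0.30, with signals of 337.1 and 301.7 at 20 °C, 1617 and 2030 at 30 °C, and 287.1 and 232.5 at 40 °C. A further small heat shock protein, AT1G54050, which the list did not hold, rose by 3.88 ± 0.16, from signals of 209.4 and 172.3 to 2792 and 2798.

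Of 34 listed genes for larger chaperones and their helpers, 9 were tested and 7 called higher, with a median of 1.49. The peptidyl-prolyl isomerase AT5G48570 and Hop3, which links HSP70 to HSP90, were higher at 30 than at 40 °C: Hop3 had signals of 45.7 and 38.5 at 20 °C, 1287 and 1269 at 30 °C, and 906.7 and 799.8 at 40 °C. Between 40 and 30 °C, 5 of the 9 were called lower and 1 higher, beside 16.6% and 22.9% of nuclear genes. At 30 against 20 °C, 8 of the 9 had been called higher, beside 13.9% of nuclear genes. At 40 against 20 °C Hop1, a paralogue, had 0.12 and Hop2 0.70, of which the second was called. HSA32, required for lasting acquired thermotolerance, rose by 2.77 ± 0.15 from signals of 51.4 and 61.9 to 427.7 and 344.4. The DnaJ gene AT1G71000 rose at least 13.6-fold at 40 °C and was below the floor on all arrays at 20 and 30 °C, with 5.8 and 1.5, then 5.8 and 4.0, then 196.0 and 176.2. AT1G70820, a phosphoglucomutase homologue, had the same course, with 11.4 and 2.7, then 3.2 and 2.5, then 202.2 and 170.8. AT1G71000 and AT1G70820 passed the filter only through their 40 °C arrays, so their direction was fixed.

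Other rises fell outside the chaperones. AT5G25450, a nuclear gene for a homologue of a respiratory complex III subunit, rose by 3.97 ± 0.11, from signals of 61.9 and 56.8 to 974.8 and 889.6, but was higher at 30 °C, with 1296 and 1432. It was called lower at 40 than at 30 °C, at -0.55 ± 0.11 (limma adjusted p = 0.00459). AT3G10020 rose by 5.02 ± 0.10, from 60.5 and 59.8 to 1983 and 1911, and AT1G30070, a protein with an SGS domain, by 4.01 ± 0.12. AT1G26800, a RING-type ubiquitin ligase, rose by 2.81 ± 0.14, from 63.9 and 67.3 through 194.4 and 191.8 at 30 °C to 528.5 and 397.8.

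Genes of signalling rose to levels that differed between the genotypes' arrays. STZ, a zinc finger repressor of transcription, went from signals of 171.6 and 58.9 to 1327 and 596.4. CML38, a calmodulin-like calcium sensor at the floor at 20 °C, had 316.1 and 82.1 at 40 °C. ORA47, an ERF transcription factor that acts on jasmonate synthesis, had 30.0 and 35.3 at 20 °C and 319.6 and 173.6 at 40 °C. Every 40 °C array of these genes lay above the 20 °C arrays. They were picked by size from called genes that changed the same way in both genotypes, so nothing is read from that separation. Wild type was the higher genotype at 40 °C. The ERF gene AT5G52020 (142.0 and 60.9 at 40 °C) and the TIR-domain genes AT1G66090 (312.9 and 184.2) and AT1G72920 (226.3 and 136.9) had the same order, as did AT4G29780 (953.8 and 468.7), AT4G27652 (967.7 and 643.6) and AT4G27654 (362.8 and 170.8). Among the 30 largest rises the change was larger in wild type for 22, and among the 30 largest falls for 14. Neither difference was tested, and the share over all nuclear genes was not counted. Some of the 30 rises had the mutant higher at 40 °C, among them AT2G03310 (107.2 and 154.9) and AT2G19310 (1797 and 1879). STZ and AT4G27652 are not among the 22. Their log2 rises were 2.95 in wild type and 3.34 in the mutant for STZ, and 2.43 and 3.29 for AT4G27652. Signals of AT4G27652 at 20 °C were 179.1 and 65.8. Without the filter on low values limma no longer called CML38 (adjusted p = 0.104), STZ (adjusted p = 0.109), AT4G27652 (adjusted p = 0.071), ORA47 (adjusted p = 0.0589), AT4G27654 (adjusted p = 0.0714) and AT5G52020 (adjusted p = 0.0966). Limma also lost STZ when the wild-type array (adjusted p = 0.137) or the mutant array (adjusted p = 0.105) at 40 °C was left out.

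**Figure D4:**
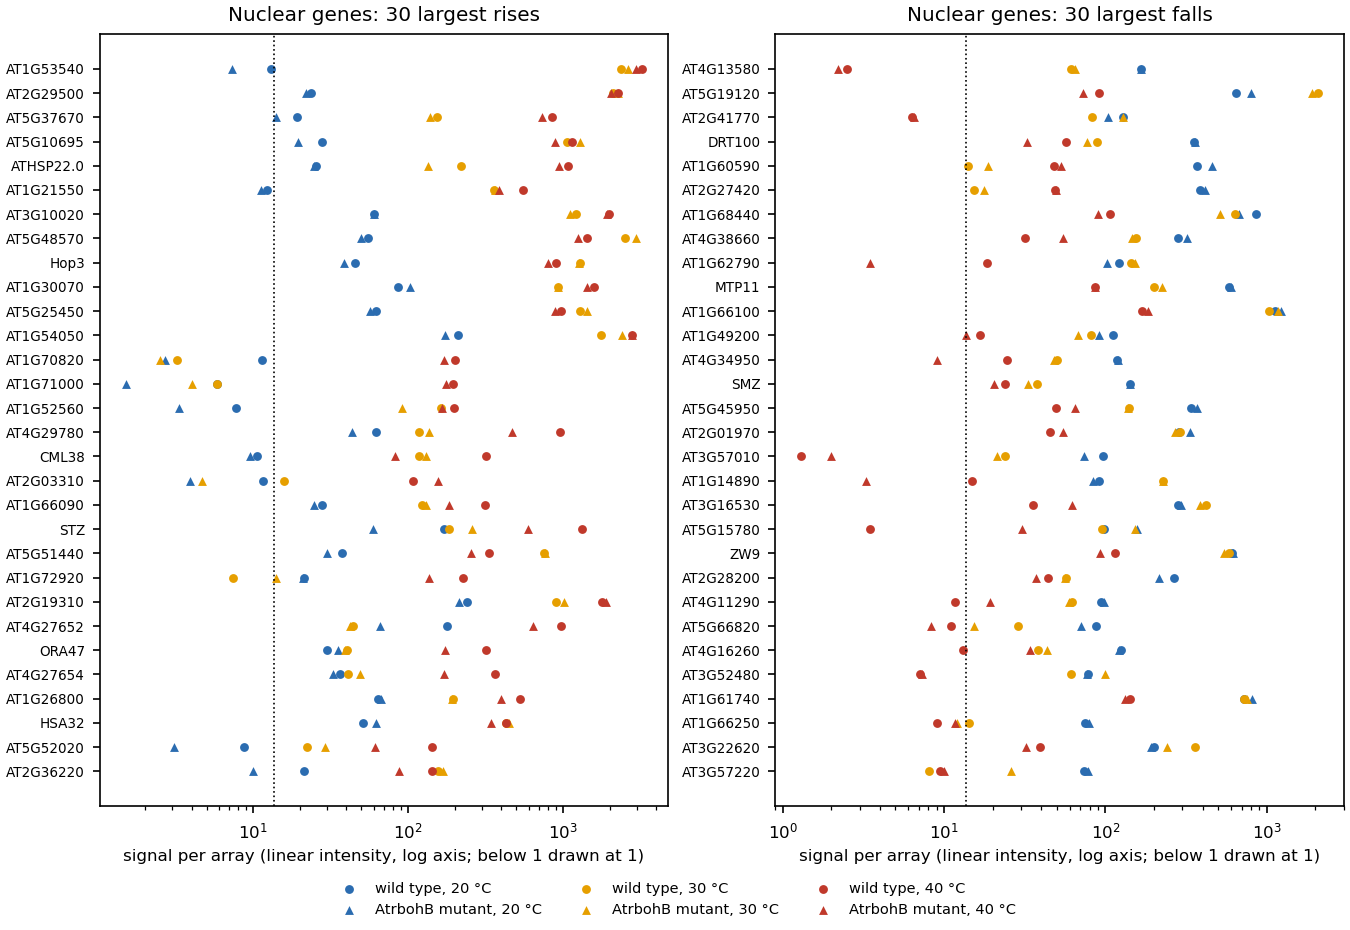
Signal on each of the 6 arrays (x axis, linear intensity on a log axis) of the 30 nuclear genes that rose most and the 30 that fell most at 40 against 20 °C, with temperature by colour, genotype by symbol and the floor of 13.7 as a dotted line. AT1G53540 lies at 3252 and 2965 at 40 °C and below the floor at 20 °C, and AT4G13580 falls from 165.6 and 166.6 to below the floor.

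AT4G13580, a dirigent protein, a family that guides the coupling of lignin and lignan units, went from 165.6 and 166.6 at 20 °C through 61.5 and 64.6 at 30 °C to 2.5 and 2.2 at 40 °C, a fall of at least 12.1-fold. AT5G19120, an aspartyl protease homologue, had 645.9 and 803.6 at 20 °C, 2075 and 1907 at 30 °C, and 91.9 and 73.1 at 40 °C. AT1G14890, a homologue of the inhibitors of pectin methylesterase, had 91.5 and 84.3, then 228.9 and 227.5, then 14.9 and 3.3. The last 2 genes were highest at 30 °C and lowest at 40 °C. The lipid transfer protein homologue AT3G22620 had that order as well, with 200.6 and 192.5, then 356.7 and 240.1, then 39.2 and 32.2, and so had the lectin AT3G16530, with 283.8 and 295.9, then 422.2 and 388.3, then 35.7 and 62.3.

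For 2 of the 30 falls the signal was lowest at 30 °C. AT1G60590, a pectin lyase homologue, had 370.5 and 459.0 at 20 °C, 14.1 and 18.7 at 30 °C, and 48.0 and 52.9 at 40 °C. AT2G27420, a cysteine protease, had 384.0 and 416.1, then 15.4 and 17.8, then 48.9 and 49.3. In both the 30 °C arrays lay below the 40 °C arrays, and both lay below the 20 °C arrays.

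Falls at 40 °C of genes that 30 °C had hardly moved were those of the thionin AT1G66100, an antimicrobial peptide, with 1129 and 1232, then 1037 and 1175, then 167.6 and 184.2, and of AT2G01970, a membrane protein of the TMN family of the Golgi, with 287.9 and 335.4, then 289.7 and 270.2, then 45.4 and 54.8. ZW9 had 611.7 and 615.6, then 585.6 and 545.7, then 115.3 and 92.3. Other falls were already called at 30 against 20 °C. SMZ, an AP2-type repressor of flowering, had 142.0 and 141.7, then 37.9 and 33.1, then 23.9 and 20.4, a change of -2.68 ± 0.19 (limma adjusted p = 3.84e-05). The beta-1,3-glucanase AT4G16260, with 125.6 and 121.4, then 38.1 and 43.5, then 13.2 and 34.1, had -2.51 ± 0.32 (limma adjusted p = 0.000799). Its call was lost without wild type at 40 °C, at a change of -1.89. Without the filter on low values limma no longer called 5 of the 30 falls, among them AT4G16260 (adjusted p = 0.0915) and AT3G16530 (adjusted p = 0.0519).

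Nuclear genes were grouped into families by the letters of their symbols before the first digit, which gave 39 families of at least 5 tested genes, 388 genes in all. A shared symbol does not always mean a shared function. Medians were below 0 for 23 families and above 0 for 16. In all, 53 of the 388 genes were called higher and 79 lower, beside 12% and 13.5% of all nuclear genes. On centring these counts were 30 and 84, and those of all nuclear genes went from 1204 and 1357 to 841 and 1457. The same 12% and 13.5% are the shares to set beside the counts of each family and list below.

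The lowest was that of the xyloglucan endotransglucosylase/hydrolases (XTH), enzymes that cut and rejoin the xyloglucan of the wall, with 4 of 6 called lower, 1 higher and a median of -0.82. XTH19 had signals of 82.8 and 96.7 at 20 °C, 267.9 and 275.8 at 30 °C, and 29.0 and 32.5 at 40 °C. XTH16 had 144.3 and 174.5, then 981.9 and 1136, then 86.0 and 48.9. Both were highest at 30 °C. XTH18, the 1 called higher (0.61), had 52.0 and 45.5, then 1573 and 1691, then 93.3 and 59.3, and its call was lost on centring (limma adjusted p = 0.0703). With only the 4 arrays at 20 and 40 °C, XTH16 (adjusted p = 0.071) and XTH20 (adjusted p = 0.0519) were no longer called in limma, and XTH20, at -0.79, had -0.0052 with the floor at the 40th percentile. Between 40 and 30 °C, 5 of the 6 were called lower, with a median of -3.17, beside 16.6% of nuclear genes. XTH32 was called higher in that comparison. At 30 against 20 °C, 4 of the 6 had been called higher and 1 lower, with a median of 2.17.

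In the list for wall loosening and growth, of 15 listed genes 6 were tested, 4 were called lower and 1 higher, and the median was -1.18. The expansin-like genes EXLA1 and EXLA2 had -1.37 and -1.81, the expansin EXPA4 -0.98 and the growth gene EXO -2.02. Without the filter on low values limma no longer called EXLA1 (adjusted p = 0.311), EXPA4 (adjusted p = 0.0701) and EXO (adjusted p = 0.109). Limma also lost EXLA1 with only the 4 arrays at 20 and 40 °C (adjusted p = 0.117) and without the variance trend (adjusted p = 0.0782). EXLA1 had signals of 112.1 and 117.8 at 20 °C, 1343 and 1810 at 30 °C, and 75.9 and 26.1 at 40 °C, so its mutant array at 40 °C lay well below that of wild type. EXLA3, at the floor at 20 °C, was the 1 called higher, by at least 1.66-fold, which both centring (adjusted p = 0.0739) and quantile normalization (adjusted p = 0.102) ended in limma. In the family of alpha-expansins (EXPA), 3 of 8 were called lower and none higher, with EXPA9 at -1.14, EXPA4 at -0.98 and EXPA15 at -0.75.

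**Figure D5:**
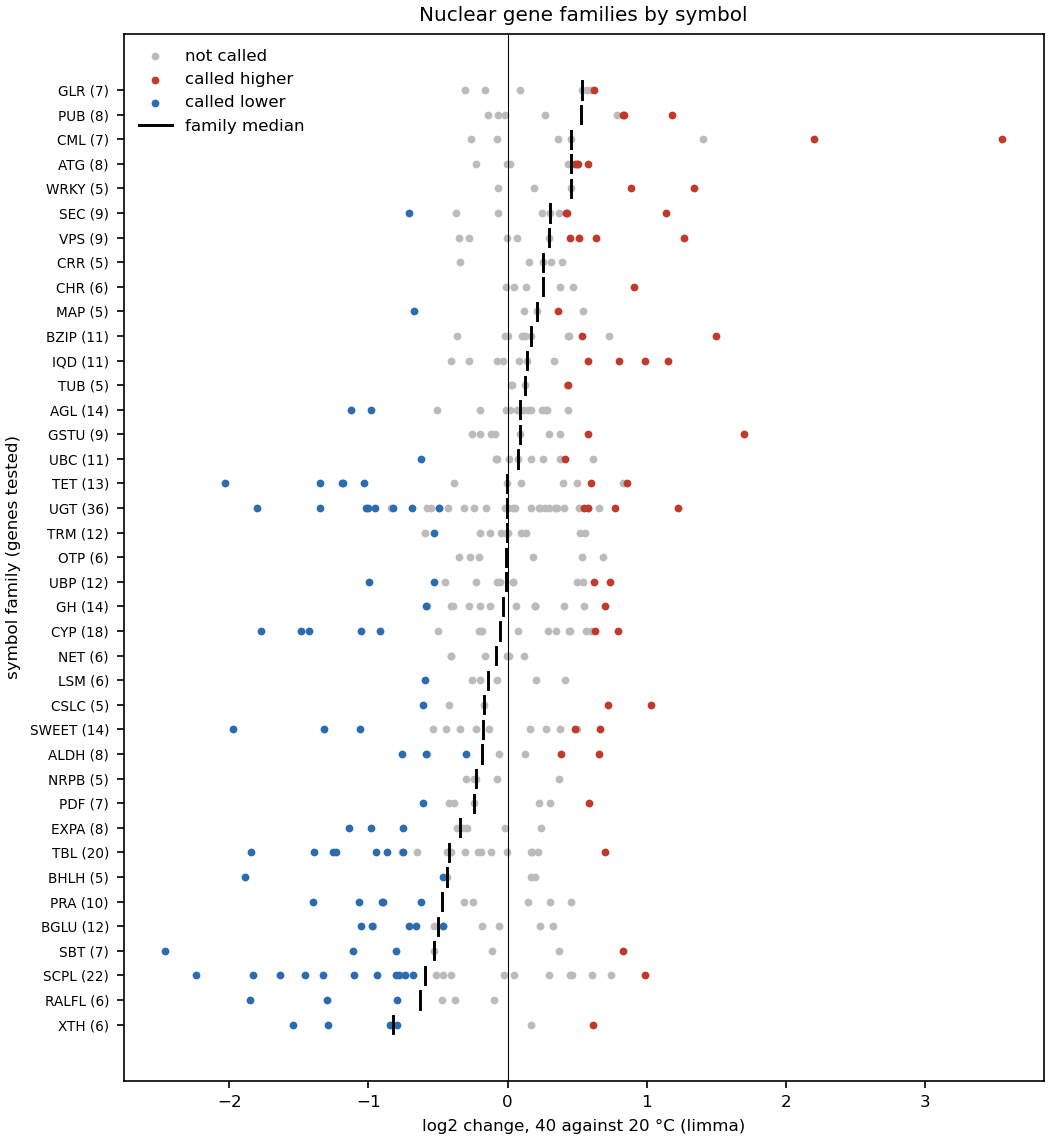
Change at 40 against 20 °C (x axis, log2, limma) of each tested gene of the 39 symbol families (y axis, ordered by median, with the number of genes tested), 1 point per gene, red where called higher and blue where called lower, with the family median as a bar. XTH lies lowest, with a median of -0.82, and GLR highest, at 0.54.

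The serine carboxypeptidase-like proteins (SCPL), secreted enzymes of which some act as acyltransferases, had 11 of 22 called lower, 1 higher and a median of -0.60. SCPL49 had signals of 282.9 and 301.5 at 20 °C and 49.9 and 76.6 at 40 °C, a change of -2.24 ± 0.17 (limma adjusted p = 4.77e-05). The symbols scpl46, scpl48, scpl35 and SCPL45 had -1.83, -1.63, -1.45 and -1.33. Their arrays at 40 °C all lay below those at 20 °C. Subtilases (SBT), secreted proteases, had 3 of 7 lower and 1 higher, among them SBT4.12 at -2.46 ± 0.19, from 133.4 and 169.9 to 24.4 and 30.7. RALF-like peptides (RALFL), which signal through receptor kinases of the cell surface, had 3 of 6 lower and none higher: RALFL31, at the floor at 40 °C, fell at least 3.62-fold, RALFL24 had -1.30 and RALFL33 -0.80.

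Beta-glucosidases (BGLU) had 5 of 12 lower and none higher, led by BGLU25 at -1.05 and by BGLU33, which lay at the floor at 40 °C and fell at least 1.97-fold. The TBL proteins, of which several acetylate wall polysaccharides, had 7 of 20 lower and 1 higher, with TBL37 at -1.84 ± 0.15, from 410.6 and 390.0 to 139.1 and 89.4, and TBL25 at -1.39. The call of the higher TBL gene was lost on either scaling. The family with the stem PRA, which holds the PRA1 proteins that bind small GTPases of vesicle traffic, had 5 of 10 lower and none higher: PRA8 had signals of 279.3 and 277.1 at 20 °C and 95.3 and 117.2 at 40 °C. Among 5 genes with the symbol BHLH, 2 were lower, led by BHLH101, a regulator of iron uptake, at -1.89 ± 0.25.

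Family medians above 0 reached 0.54, while the lowest family median was -0.82. Single members of these families could change more, as CML38 did, by at least 11.8-fold. Genes of autophagy (ATG), which enclose cell contents for breakdown in the vacuole, had 4 of 8 called higher and none lower, with a median of 0.46. ATG8F had signals of 485.6 and 457.8 at 20 °C and 681.0 and 729.3 at 40 °C, a change of 0.58 ± 0.10 (limma adjusted p = 0.004). ATG8C had 0.50, ATG8E 0.50 and ATG3 0.49, and the last 2 were lost on centring in limma (adjusted p = 0.0893 and adjusted p = 0.0528). The VPS genes, of the sorting of cargo at endosomes, had 4 of 9 higher and none lower, with VPS2.1 at 1.27 ± 0.16, from 125.0 and 102.9 to 327.7 and 227.3. Centring ended the call of VPS2.2 (limma adjusted p = 0.0824), and with only 4 arrays 1 of the 4 stayed.

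Plant U-box ubiquitin ligases (PUB) had 3 of 8 higher, none lower and a median of 0.53. PUB23 had signals of 81.3 and 65.2 at 20 °C and 288.2 and 94.8 at 40 °C, so its mean change of 1.18 was larger in wild type. PUB26 was lost on centring (adjusted p = 0.0611) and on quantile normalization (adjusted p = 0.0688) in limma, and 0 of 8 were called with only 4 arrays. Of 5 WRKY transcription factors 2 were higher: WRKY22 at 0.89, and WRKY53, at the floor at 20 °C, by at least 2.53-fold. With the floor at the 40th percentile WRKY53 was not called (limma adjusted p = 0.221), and with only 4 arrays WRKY22 was not (limma adjusted p = 0.124). Calmodulin-like genes (CML) had 2 of 7 higher, CML38 and CML23, the second from 56.3 and 31.0 to 214.6 and 172.7. Glutamate receptor-like channels (GLR) had the highest median, 0.54, with 1 of 7 called higher, ATGLR1.2, a call lost on either scaling. In the stem SEC, most members of which belong to the exocyst or to other steps of secretion, 3 of 9 were higher and 1 lower: SEC5B was at the floor at 20 °C and reached 32.5 and 28.0, and SEC6 had -0.71. Centring ended the calls of SEC22 (adjusted p = 0.068) and SEC5A (adjusted p = 0.108) in limma, and the floor at the 40th percentile that of SEC5B (adjusted p = 0.461). None of 5 CRR genes was called.

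Further families were, like the alpha-expansins, picked after their values were seen, and nothing was tested on them as sets. Tetraspanins (TET), membrane proteins, had 5 of 13 called lower and 2 higher at a median of 0.00: TET2 had -2.03, TET3 -1.35 and TET7 -1.03, and TET8 had 0.60. Glutathione transferases of the tau class (GSTU) had 2 of 9 higher. GSTU20 had signals of 434.1 and 410.4 at 20 °C, 263.2 and 235.6 at 30 °C, and 1300 and 1443 at 40 °C, a rise of 1.70. At 40 against 30 °C, 7 of the 9 were called higher and none lower, also on either scaling, beside 22.9% of nuclear genes called higher. At 30 against 20 °C all 9 had been called lower, with a median of -0.82, beside 19.1% of nuclear genes. The family median at 40 against 20 °C was 0.09.

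The remaining lists had fewer tested genes. Of 18 genes of dehydration and cold 4 were tested and 4 called higher: STZ, COR15A (2.34), COR15B (1.12) and COR47 (0.62). COR47, a dehydrin, had signals of 604.3 and 630.7 at 20 °C, 2993 and 3711 at 30 °C, and 978.1 and 923.9 at 40 °C. Among 14 jasmonate genes 4 were tested and 1 called higher, AT5G05600, with 25.3 and 17.3, then 824.7 and 773.4, then 46.5 and 36.4. All 4 were called lower at 40 than at 30 °C, beside 16.6% of nuclear genes. At 30 against 20 °C all 4 had been called higher, beside 13.9% of nuclear genes. Their median change was 4.30 at 30 against 20 °C and 0.20 at 40 against 20 °C. Of 9 calcium sensors 4 were tested and 2 called higher, while CML37 had signals of 6.1 and 0.5 at 20 °C and 81.1 and 16.3 at 40 °C and was not called (limma adjusted p = 0.077).

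Of 34 genes that scavenge reactive oxygen 5 were tested, with the glutathione reductase GR1 lower (-0.59) and the thylakoid ascorbate peroxidase TAPX higher (0.42, lost on centring with a limma adjusted p of 0.0909). Of 10 NADPH oxidases, the family of the disrupted gene, 2 were tested, and neither was called: AT1G19230 had -0.02, and AT4G25090 had signals of 22.6 and 14.3 at 20 °C and lay at the floor at 40 °C. Of 11 genes of alternative respiration, 2 were tested and neither was called: NDB2, an alternative NADH dehydrogenase, had 0.03, and AT2G21640 had -0.43. Of 20 genes of folding in the endoplasmic reticulum, 6 were tested and 0 called, with a range of -0.38 to 0.58. Transcription factors of this response, BZIP17, BZIP28 and BZIP60, had 0.00, 0.17 and 0.10. One of the 6, AT5G07340, was called higher on quantile normalization. Of 12 clock genes GI alone was tested and was higher, at 0.85. None of the 22 genes for heat shock factors and their coactivator MBF1C had a tested probe set of its own.

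Of 4 root markers 3 were tested and 1 was called lower. PYK10, a beta-glucosidase of root cells, fell from signals of 2587 and 2684 to 849.8 and 789.9, while the root hair expansins EXPA7 and EXPA18 had -0.32 and 0.24 and were not called; the part of root tissue in the falls was not tested. Of 32 nuclear photosynthesis genes 6 were tested and 3 called higher, LHCB4.2 (0.70), LHCB4.1 (0.62) and RCA (0.41), and on quantile normalization LHCB4.2 alone was left and RCA had -0.06. Of the 2 seed markers none was tested. Of 8 reference genes 5 were tested, and GAPC2 (0.42) and AT4G26410 (0.33) were called higher, both lost on centring in limma (adjusted p = 0.189 and adjusted p = 0.14).

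Some abundant nuclear genes, picked for their small change, gave nearly the same signal at both temperatures. Among the 500 with the highest mean, the 10 with the smallest change lay between -0.01 and 0.01, each with an SE of 0.09 to 0.13. AT5G52650, a cytosolic ribosomal protein, had 1170 and 1245 at 20 °C and 1170 and 1265 at 40 °C. The calreticulin CRT1b had 465.5 and 504.3 against 447.0 and 520.5. ATHM2, a plastid thioredoxin, had 1181 and 1242 against 1126 and 1282.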

How the data were processed

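Total RNA of 6 samples was hybridised to ATH1 arrays, per the labels. The deposited table holds intensity per probe set on a linear scale, already scaled to a common level by the authors (the mean of each array without its extremes is near 99); the summary method is not given in the sources used here. Of 22810 probe sets, 64 controls were left out, and 13513 of the rest have 1 gene in the platform annotation, 503 several and 8730 none. RefSeq (assembly TAIR10.1) matched 13436 of the 13513 and did not match 77. Mitochondrial genes were matched by symbol, and orfX by hand. The probe set with the highest mean stood for a gene.

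Log2 values above the floor on at least 2 of 6 arrays were fitted with limma 3.58.1 in R 4.3.3 (temperature and genotype as additive terms, eBayes with trend, 6.08 prior and 2 residual degrees of freedom, Benjamini-Hochberg over 18227 probe sets, two-sided). With 1 array per group, any departure from additivity is counted as noise, and the number of arrays limits the precision. The script was tested on simulated data.

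The comparison, the members and the 16 lists (262 genes, 66 tested) were chosen with earlier results of these data known. Named were the 30 nuclear genes with the largest rise and fall among the called, all tested mitochondrial genes, up to 10 plastid genes each way, up to 5 genes of the families with at least 60% called one way or with the 8 highest or lowest medians, the tested list genes and the 10 least changed of the 500 highest nuclear genes. Other families, the other plastid genes, block loci and AT1G54050's grouping were chosen after values were seen, as were the grouping of plastid genes by complex and the minimum of 0.5 for opposite changes. Alternatives were 2 scalings, 2 treatments of low values, 2 filters, 2 variance priors, the 4 arrays alone, no genotype term and each array left out. Figures were drawn with matplotlib 3.10.9.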

Additional observations from a re-analysis of the deposited data

Results flagged for a closer look

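AT2G38240, a jasmonate oxidase, moved in opposite directions in the genotypes. In wild type its signal went from 21.2 at 20 °C to 44.7 at 40 °C, a change of 1.08, and in the mutant from 33.2 to 20.1, a change of -0.72. Subtracting the wild-type change from the mutant change gives -1.8. This rests on single arrays and was not tested. At 30 °C the signals were 841.2 and 1090, above all of these.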

How the results depend on the processing

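Arrays were matched between temperatures by genotype, which was the block. The labels give no replicate numbers by which to match them further. Among the named genes RCA alone had a called direction turned, on quantile normalization (-0.057, adjusted p = 0.618 in limma). With only the 4 arrays at 20 and 40 °C, 1156 probe sets were higher and 1677 lower, with 484 and 849 nuclear genes, 14 plastid genes higher and 18 family genes higher. Without the filter on low values the counts were 668 and 1004, with 319 and 508 nuclear genes, 9 and 30 family genes, 12 and 2 list genes, and 0 and 2 plastid genes. Leaving out 1 array gave 269 to 1146 probe sets higher and 553 to 1654 lower, 92 to 480 and 258 to 836 nuclear genes, 0 to 14 and 1 to 7 plastid genes, 2 to 17 and 17 to 52 family genes, and 13 to 23 and 3 to 4 list genes; such fits have 1 residual degree of freedom. The lowest nuclear counts, 92 and 258, came without wild type at 40 °C. The nuclear median was 0.014 on centring, 0.038 with the floor at the 40th percentile, 0.030 on quantile normalization and 0.042 to 0.108 with 1 array left out, and the mitochondrial median was 3.91 with that floor and 3.83 with log2(value + 16). Plastid genes called higher numbered 3 on centring, 6 on quantile normalization, 6 without the variance trend and 15 without the genotype term. Family genes called higher numbered 30 on centring, and block loci called higher 13 of 14 where all 6 arrays had to lie above the floor. All 15 mitochondrial genes were called with either scaling. Of 232 named genes, 86 lost their call without the filter, 39 with the 4 arrays alone, 21 on centring and 15 on quantile normalization. The 232 include genes that were not called in the first place and had no call to lose, so these are not shares of the calls.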
